A study of Homo sapiens with 8 samples.

Results

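Fibrillar collagen genes encode the chains of the collagens that assemble into banded fibrils, and 9 of them were followed here in the open chromatin of a hepatic stellate cell line. The members were COL1A1 and COL1A2 (type I), COL3A1 (type III), COL5A1, COL5A2 and COL5A3 (type V), COL11A1 (type XI), COL24A1 (type XXIV) and COL27A1 (type XXVII), 9 of the 20136 protein-coding genes of the annotation. For each one, every peak with its summit in the gene body or within 50 kb of either end was taken from each of 8 peak lists. Peaks that overlapped by at least 1 bp in different lists were merged into sites, and a site with peaks from at least 2 libraries was kept as a consensus site. The 9 loci held 90 of the 75501 consensus sites, and 33 further sites that were seen in 1 library.

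Open DNA was mapped by ATAC-seq, in which a transposase inserts sequencing adapters where chromatin is accessible. The cells were wild-type LX-2, a human line derived from hepatic stellate cells (HSCs), so that all libraries come from 1 line. They were cultured for 2 days (D2) or 4 days (D4) on fibronectin-coated polyacrylamide gels whose stiffness was near 2 kPa for the soft and near 40 kPa for the stiff matrix, with 2 replicate libraries for every pair of day and matrix. The comparison of soft with stiff asks how the mechanics of the matrix move with chromatin accessibility, and the study's methods call the replicates of its sequencing experiments biological, while the labels name no culture for each library. The p-values measure the spread between these libraries.

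Types I and III are the main collagens of liver scar and are made chiefly by HSCs that have become myofibroblasts. Type V chains enter the same fibrils and help to set their diameter, type XI does so mainly in cartilage, and types XXIV and XXVII form a later-described branch of the family with shorter or interrupted triple helices. Transcription of COL1A1 and COL1A2 is known to draw on a proximal promoter with CCAAT and GC-rich elements and on elements in the first intron and far upstream.

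The proximal sequences of 3 genes whose promoter peak was present in only some libraries are shown first, read from the GRCh37 genome (hg19) on the strand of the gene, 5′ to 3′. Capitals mark the CCAAT box (letters CCAAT), the TATA box (letters TATAAA), the GC box (letters GGGCGG) and the AP-1 motif (letters TGACTCA), each searched on both strands. Each window holds the 250 bases before the canonical start, and no printed matches overlap. The windows, all on the plus strand, are chr7:94023957-94024206 for COL1A2, chr9:137533399-137533648 for COL5A1 and chr9:116917567-116917816 for COL27A1.
COL1A2 upstream: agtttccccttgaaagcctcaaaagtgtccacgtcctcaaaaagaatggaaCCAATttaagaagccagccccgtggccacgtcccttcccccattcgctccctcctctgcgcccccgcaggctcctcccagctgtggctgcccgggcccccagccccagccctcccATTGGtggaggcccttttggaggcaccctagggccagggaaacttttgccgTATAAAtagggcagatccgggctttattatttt
COL5A1 upstream: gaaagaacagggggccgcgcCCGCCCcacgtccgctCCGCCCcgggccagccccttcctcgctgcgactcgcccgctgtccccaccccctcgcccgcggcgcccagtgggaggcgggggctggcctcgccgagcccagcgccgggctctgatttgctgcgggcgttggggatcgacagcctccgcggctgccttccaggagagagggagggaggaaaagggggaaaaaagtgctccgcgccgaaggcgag
COL27A1 upstream: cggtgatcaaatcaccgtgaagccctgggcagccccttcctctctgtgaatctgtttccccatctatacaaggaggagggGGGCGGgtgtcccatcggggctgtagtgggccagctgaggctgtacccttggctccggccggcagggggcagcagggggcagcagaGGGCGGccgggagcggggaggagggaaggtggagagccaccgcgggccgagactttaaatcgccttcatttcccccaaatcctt
TATAAA was found in the 250 bases of 2 of the 9 genes, in COL1A2 at position -33 from the start, whereas 9.39% of all genes held it. CCAAT was found in 4 of 9, among them COL1A2, COL5A3 and COL11A1, beside 34.2% of all genes, and the GC box in 5 of 9 beside 58.7%. TGACTCA was in 0 of 9 windows, and in 3.06% of all. A match of these letters is a description of the sequence and says nothing of a bound factor.

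The distal sequences below belong to the sites whose ranks are compared further on, each with 60 bases on either side of the summit of the peak that ranked highest in its list by −log10 p, on the plus strand of GRCh37. Capitals mark the AP-1 motif and the TEAD motif (letters GGAATG), on either strand. The names give the gene and the distance of the summit from its canonical start, with a minus sign for upstream. The windows are chr17:48238859-48238979 and chr17:48255875-48255995 near COL1A1, chr17:48277704-48277824 in intron 1 of COL1A1, chr7:94005085-94005205 near COL1A2, chr19:10138440-10138560 near COL5A3, chr1:86315995-86316115 in intron 37 of COL24A1, chr9:137494559-137494679 near COL5A1, chr9:116929077-116929197 in intron 2 of COL27A1, and chr2:190118747-190118867 near COL5A2.
COL1A1 40.1 kb: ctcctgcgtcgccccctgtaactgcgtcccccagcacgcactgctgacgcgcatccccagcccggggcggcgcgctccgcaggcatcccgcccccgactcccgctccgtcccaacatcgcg
COL1A1 23.1 kb: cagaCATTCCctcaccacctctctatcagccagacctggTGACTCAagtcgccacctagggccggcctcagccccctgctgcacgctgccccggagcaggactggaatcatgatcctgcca
COL1A1 1.23 kb: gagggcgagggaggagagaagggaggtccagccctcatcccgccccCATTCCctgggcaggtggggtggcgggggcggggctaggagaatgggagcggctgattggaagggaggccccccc
COL1A2 -19.1 kb: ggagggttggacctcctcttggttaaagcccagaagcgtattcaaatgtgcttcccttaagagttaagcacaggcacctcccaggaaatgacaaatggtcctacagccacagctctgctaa
COL5A3 -17.3 kb: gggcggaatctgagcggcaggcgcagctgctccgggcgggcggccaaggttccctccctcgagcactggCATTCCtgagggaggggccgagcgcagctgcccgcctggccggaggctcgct
COL24A1 306 kb: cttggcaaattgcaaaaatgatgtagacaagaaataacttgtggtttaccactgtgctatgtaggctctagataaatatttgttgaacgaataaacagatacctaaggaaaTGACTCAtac
COL5A1 -39.0 kb: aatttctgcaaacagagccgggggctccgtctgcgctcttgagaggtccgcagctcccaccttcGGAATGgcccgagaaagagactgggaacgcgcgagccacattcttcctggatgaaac
COL27A1 11.3 kb: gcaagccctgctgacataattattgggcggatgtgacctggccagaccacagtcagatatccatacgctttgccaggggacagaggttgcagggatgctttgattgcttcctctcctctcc
COL5A2 -74.3 kb: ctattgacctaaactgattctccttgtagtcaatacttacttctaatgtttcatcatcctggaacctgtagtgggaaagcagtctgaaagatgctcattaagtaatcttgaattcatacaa
Over a wider window of 100 bp on each side of the summit, 25 of the 84 distal collagen sites (summit more than 1 kb from any canonical start) held TGACTCA, which is 29.8%, beside 35% of the 63958 distal consensus sites. GGAATG was in 22 of the 84 sites, 26.2%, beside 21.2%. Among the distal sites with a peak in every library, TGACTCA was in 9 of 26 (34.6%, beside 38.8% of 17089) and GGAATG in 10 of 26 (38.5%, beside 22.6%). Sites were placed by the summit of their highest-ranked peak, so the COL1A1 site at 1.23 kb counts as distal here. It is also the COL1A1 promoter site described below, and it holds GGAATG. With so few sites these shares are given as a description, without a test.

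The lists differed in length and depth. They held 29789 to 72840 peaks, and the depth estimated from the deposited values was 0.780 fragments per kb in D2 soft replicate 1 and 2.08 to 3.15 in the other 7 libraries. D2 soft replicate 1 therefore stood apart, and differences that moved by over 1.5 times without it are also given without it. Because fold enrichment is comparable within a list only, each peak is described by its within-list percentile, which is 100 for the peak with the highest fold enrichment in its list and near 0 for the lowest. A promoter peak is one that overlaps the canonical start with 1 kb on each side. By this measure, 6 of 10 stellate and myofibroblast markers (among them PDGFRB, ACTA2, TAGLN and VIM) had a promoter peak in every library, but LRAT and DES had none. None of the 4 cholangiocyte markers had a promoter peak in any library and 5 of 6 hepatocyte markers had none, with APOB in 1 library. Of the endothelial markers, CDH5 and STAB2 had none, TEK had one in 2 libraries, and PECAM1 was not matched. Of the 5 leukocyte markers, PTPRC, CD163 and SPI1 had none, and CD68 and CD14 had one in every library.

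Peaks were counted first in each locus. The 9 loci together held 39 and 72 peaks in D2 soft replicates 1 and 2, 78 and 84 peaks in the D2 stiff pair, 78 and 66 in the D4 soft pair, and 75 and 85 in the D4 stiff pair. The mean was 63.8 ± 17.2 (SD, n = 4) on the soft matrix and 80.5 ± 4.80 (SD, n = 4) on the stiff one. The soft and stiff counts overlapped when the days were pooled and on day 4. On day 2 both stiff counts lay above both soft ones. Without D2 soft replicate 1 the soft mean was 72 ± 6 (SD, n = 3). As a share of the list these peaks made up 0.131% and 0.129% in D2 soft, 0.132% and 0.132% for D2 stiff, 0.123% and 0.117% for D4 soft, and 0.114% and 0.117% for D4 stiff. The 4 D2 libraries thus lay above the 4 D4 libraries in this share. Soft and stiff shares overlapped when the days were pooled. On day 2 both stiff shares lay above both soft ones. On day 4 both soft shares lay above both stiff ones, with 0.1171% in D4 soft replicate 2 and 0.1167% in D4 stiff replicate 2.

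The loci differed widely in how densely they were covered. COL27A1, whose gene body spans 157 kb, held 19 consensus sites, or 7.39 per 100 kb of its window, and COL5A2 held 21, or 7.16 per 100 kb. COL1A1, which lies in a gene-rich stretch with PPP1R9B and SGCA inside its window, followed with 8 sites, or 6.81 per 100 kb. At the other end, COL24A1 had 5 sites in 528 kb, 0.947 per 100 kb, and COL5A1 had 9 sites, 2.97 per 100 kb. COL1A2, COL5A3, COL3A1 and COL11A1 lay between, with 5.13, 4.64, 4.34 and 3.31 sites per 100 kb. The median of the 9 genes was 4.64 and that of all 20136 genes 3.93 per 100 kb. The windows of COL3A1 and COL5A2, neighbours on chromosome 2, overlap, and 3 sites belong to both.

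**Figure D1:**
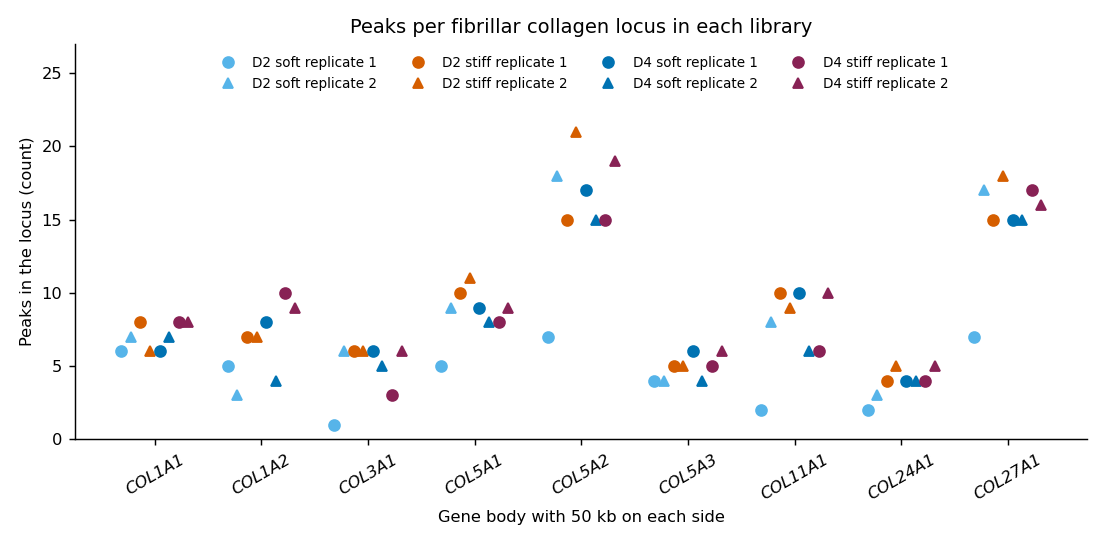
Peaks per locus (vertical axis, count) for the 9 genes (horizontal axis), with one symbol for each library, coloured by group. D2 soft replicate 1 had the fewest peaks in COL3A1, COL5A1, COL5A2, COL11A1, COL24A1 and COL27A1, with 1, 5, 7, 2, 2 and 7.

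COL1A1 and COL1A2 encode the chains that join into type I collagen. In the COL1A1 locus the lists held 6 and 7 peaks in D2 soft, 8 and 6 for D2 stiff, 6 and 7 for D4 soft, and 8 and 8 for D4 stiff. In the COL1A2 locus they held 5 and 3, 7 and 7, 8 and 4, and 10 and 9 in the same order. In COL1A2 both stiff libraries lay above both soft libraries on each day, and in COL1A1 this was so on day 4 while the groups overlapped on day 2. In the COL3A1 locus there were 1 and 6 peaks in D2 soft, 6 and 6 for D2 stiff, 6 and 5 for D4 soft, and 3 and 6 for D4 stiff, and soft and stiff overlapped. COL5A2 ranged from 7 to 21 peaks, COL27A1 from 7 to 18, COL11A1 from 2 to 10, COL5A1 from 5 to 11, COL5A3 from 4 to 6 and COL24A1 from 2 to 5.

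Each locus's share of its list was compared between soft and stiff with limma, on log2 of the peaks in the locus plus 0.5 over the peaks in the list, for the 14681 protein-coding genes with a mean of at least 3 peaks. All 9 members entered the fit, and the Benjamini-Hochberg adjusted p was under 0.05 for 0 of 9 on day 2, on day 4 and over the mean of both days (0% of all genes in each). The unadjusted p was under 0.05 for 0 of 9 as well, beside 10.1% of all genes on day 2, 3.51% on day 4 and 9.65% over both days. The widest day 2 differences, stiff minus soft on the log2 scale, were 0.52 ± 0.29 (SE) in COL11A1 and -0.50 ± 0.26 in COL1A1, with adjusted p = 0.513 and 0.499. Leaving out D2 soft replicate 1 gave 0.09 for COL11A1 and -0.15 for COL1A1. On day 4 they were -0.54 ± 0.35 in COL3A1 and 0.48 ± 0.37 in COL1A2, both with adjusted p = 0.988. The COL1A2 difference over both days was 0.33 ± 0.26 (adjusted p = 0.624). The higher COL1A2 counts on the stiff matrix were not tested themselves, and this difference in share did not pass the adjusted threshold. This difference was 0.72 without D2 soft replicate 1 and -0.06 without D2 soft replicate 2. On day 2 the COL1A2 difference was 0.18, or 0.96 without D2 soft replicate 1 and -0.60 without D2 soft replicate 2. Without D2 soft replicate 2, which leaves the shallow library alone in its group, limma called 4 members on day 2: COL11A1 and COL3A1 higher on the stiff matrix (0.95 ± 0.26 and 1.07 ± 0.31, adjusted p = 0.00820 and 0.0138), and COL1A1 and COL5A3 lower (-0.85 ± 0.24 and -0.75 ± 0.27, adjusted p = 0.0129 and 0.0425). The same fit called 3245 of 14762 genes on day 2. It also called the interaction of stiffness and day for COL11A1 and COL3A1 (-1.17 ± 0.33 and -1.61 ± 0.40, adjusted p = 0.0320 and 0.0141), among 742 genes, and the difference of day 4 from day 2 for COL5A1 (-0.38 ± 0.13, adjusted p = 0.0490), among 2426 genes. With all libraries, 0 genes were called in either. Without D2 soft replicate 1 in place of replicate 2, limma called 0 members on day 2, and the differences of COL3A1 and COL5A3 had the opposite signs, -0.14 and 0.15.

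Where the sites lie in the loci was described next. Of the 90 consensus sites, 40 had their summit in an intron of the canonical transcript of a member, 2 in an exon, 5 in an intron of a longer COL5A2 transcript, 6 within 1 kb of a canonical start, 8 in a neighbouring coding gene, 9 in a non-coding gene and 20 in intergenic sequence. A peak was present in every library at 28 of the 90 sites (31.1%), beside 32.1% of all consensus sites, a share near the background. At 15 sites (16.7%) the peak was missing in D2 soft replicate 1 alone, beside 15% of all consensus sites. Without that library, 43 collagen sites had a peak in all 7 remaining lists. Over the whole series 35578 sites did so, beside 24246 with a peak in all 8 lists. The peaks of the loci sat near the middle of their lists, with medians from the 41.4th to the 51.1st percentile.

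**Figure D2:**
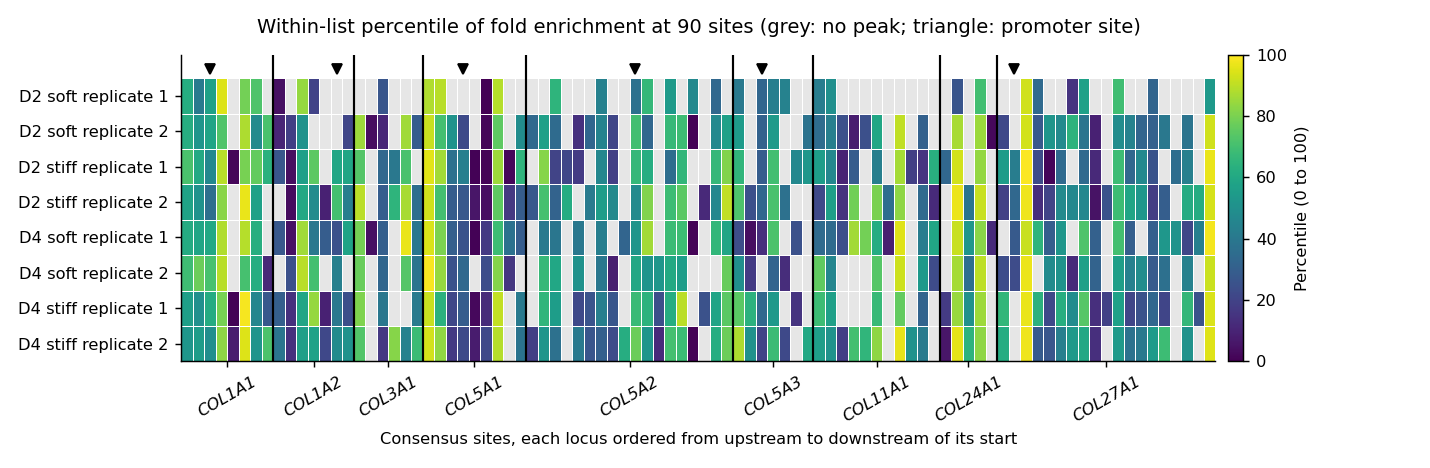
Within-list percentile of fold enrichment (colour, 0 to 100) for the 90 consensus sites (columns, each locus ordered from upstream to downstream of its start) in the 8 libraries (rows), with grey where a library had no peak and triangles over promoter sites. Grey cells are most frequent in D2 soft replicate 1, and the sites above the 90th percentile in at least 7 libraries lie in the COL5A1 and COL27A1 loci.

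A promoter peak was present in every library for COL1A1 and COL5A2, 2 of 9 members, beside 42.1% of all protein-coding genes. It was present in no library for COL3A1, COL11A1 and COL24A1, 3 of 9, beside 32.5% of all genes. COL5A1 had one in 7 libraries, COL1A2 in 6, COL27A1 in 5 and COL5A3 in 1. The procollagen folding, secretion and processing genes, a list of 16 that includes the chaperone SERPINH1 and the prolyl hydroxylase subunits P4HA1, P4HA2 and P4HB, had a promoter peak in every library in 10 cases, in some libraries in 4 and in none in 2 (P4HA3 and ADAMTS2). Of these 16, 13 entered the locus fit and limma called 0 in any of its comparisons, with P4HA3 alone at an unadjusted p under 0.05, on day 2 (-0.88 on the log2 scale, adjusted p = 0.477). COL2A1, the cartilage collagen, had a promoter peak in 1 library (D4 stiff replicate 2, at the 3.80th percentile), and COL11A2 in none.

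At COL1A1, the promoter site chr17:48277458-48279150 had fold enrichments of 6.62 and 8.34 in D2 soft, 7.14 and 6.77 for D2 stiff, 8.06 and 8.56 for D4 soft, and 8.68 and 7.71 for D4 stiff. These placed it at the 57.3rd and 58.5th percentile of the D2 soft lists, the 46.5th and 36.0th of D2 stiff, the 60.1st and 71.0th of D4 soft, and the 61.1st and 49.2nd of D4 stiff. Both D2 soft values lay above both D2 stiff values, whereas the D4 groups overlapped, and the 4 soft and 4 stiff libraries overlapped as a whole. In order of the mean, D4 soft was at 65.6 ± 7.67 (SD, n = 2), D2 soft at 57.9 ± 0.847, D4 stiff at 55.1 ± 8.41 and D2 stiff at 41.3 ± 7.41, and in this order only the neighbours D2 soft and D4 stiff overlapped. With limma on ranks, stiff minus soft was -0.84 ± 0.48 (SE) normal scores on day 2 and -0.67 ± 0.34 over both days, with adjusted p = 0.705 and 0.658. The summit lay 832 to 1238 bp downstream of the start in all 8 lists, where intron 1 lies at the summit of the highest-ranked peak, and the peak covered the start itself in 4 lists. Ranked by −log10 p, which also reflects the number of fragments, the site stood higher in each list, between the 77.6th and the 96.8th percentile.

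At COL1A2, the promoter site chr7:94024311-94025330 had no peak in the 2 D2 soft lists. It was at the 59.2nd and 70.1st percentile for D2 stiff, the 24.8th and 43.3rd for D4 soft, and the 40.2nd and 47.9th for D4 stiff. The D2 stiff libraries were the highest, and the D4 groups overlapped. The summit held 14 and 19 fragments for D2 stiff, 11 and 12 for D4 soft, and 18 and 16 for D4 stiff, and it lay 674 to 771 bp downstream of the start, which no peak covered. The site was therefore 1 of the 7 found in both D2 stiff libraries and in neither D2 soft library. The estimated depth was 0.780 and 2.08 fragments per kb in D2 soft, beside 2.32 and 2.19 in D2 stiff. The median peak of each list held 10 and 16 fragments at the summit in D2 soft, beside 13 and 17 in D2 stiff. The part of depth in the absence of this peak from D2 soft was not tested.

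COL5A2 encodes a chain of type V collagen, and its promoter site chr2:190043221-190044894 was centred on the start, with summits from -96 to 55 bp. It was at the 37.2nd and 69.7th percentile in D2 soft, the 66.8th and 47.5th for D2 stiff, the 52.0th and 59.7th for D4 soft, and the 67.6th and 77.5th for D4 stiff. Both D4 stiff values lay above both D4 soft values, and the D2 groups overlapped. The limma difference, stiff minus soft, was 0.48 ± 0.48 (SE) normal scores on day 4, with adjusted p = 0.958 (0.30 without D4 soft replicate 1 and 0.29 without D4 stiff replicate 2), and 0.13 ± 0.34 over both days, with adjusted p = 0.952, the latter being -0.02 without D2 soft replicate 1.

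By fold enrichment, COL5A1 and COL27A1 had weaker promoter peaks. Ranked by −log10 p, the COL5A1 peak stood higher in each list that had it, between the 50.1st and the 71.1st percentile. The COL27A1 peak stood between the 31.4th and the 48.5th by that measure. The COL5A1 site chr9:137533131-137533690, with summits at -117 to -205 bp from the start, was absent in D2 soft replicate 1, at the 22.3rd percentile in D2 soft replicate 2, at 42.6 and 27.4 for D2 stiff, 25.5 and 33.2 for D4 soft, and 29.2 and 22.3 for D4 stiff. Soft and stiff overlapped on day 4, and on day 2 the single soft value lay below both stiff ones. The COL27A1 site chr9:116917445-116917885 was at the 42.0th and 33.4th percentile in D2 stiff and the 27.8th and 23rd in D4 soft, and was absent in D2 soft and D4 stiff, although D4 stiff replicate 2 had a peak further on, at 1.22 kb. It held 14 to 16 fragments at the summit in the libraries that had it. In each library the median promoter peak of all genes stood at the 60.8th to 67.7th percentile. COL5A1 and COL27A1 lay below it in every library with a peak. COL1A1 lay above it in D4 soft replicate 2 alone, and COL1A2 in D2 stiff replicate 2 alone. COL5A2 lay above it in some lists and below it in others.

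**Figure D3:**
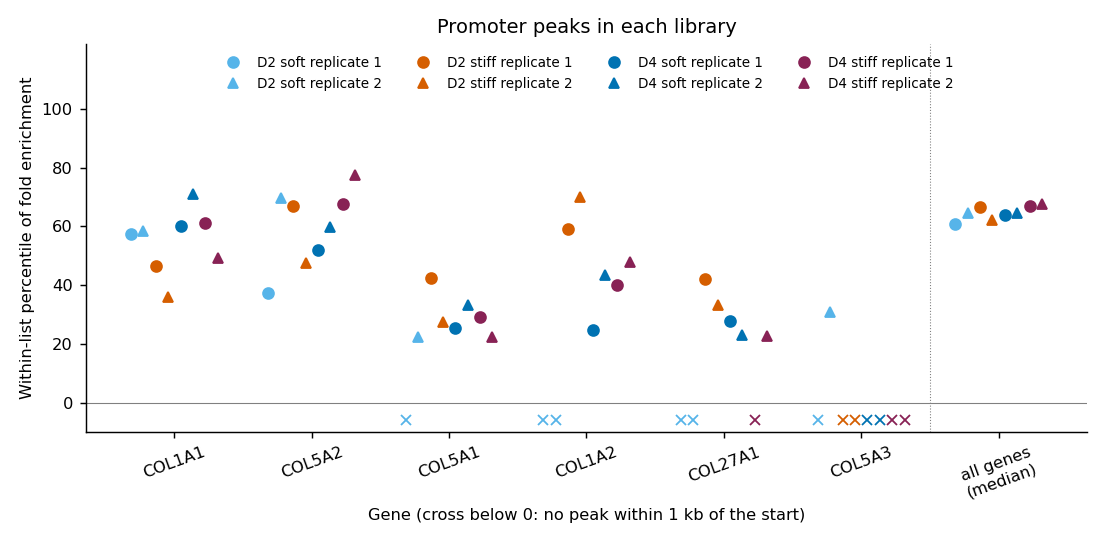
Within-list percentile of fold enrichment (vertical axis, 0 to 100) of the promoter peak of 6 members, with one symbol for each library and a cross below 0 where there was no peak, and the median of all genes with a promoter peak at the right. COL1A1 and COL5A2 have a symbol in all 8 libraries, and COL5A1 and COL27A1 sit below the all-gene median in each library.

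Of the genes without a promoter peak in any library, COL11A1 and COL3A1 had peaks nearby in every list, and COL24A1 did not. In COL11A1 every library had a summit 1.67 to 1.97 kb downstream of the start, in intron 1 (chr1:103572003-103572747), at the 49.7th and 42.9th percentile in D2 soft, 46.3 and 56.2 for D2 stiff, 34.6 and 46.0 for D4 soft, and 56.5 and 51.6 for D4 stiff. Both D4 stiff values lay above both D4 soft values and the D2 groups overlapped. In COL3A1 the nearest summit was 2.43 to 4.57 kb downstream of the start, and the intron 1 site chr2:189843024-189844510 was present in every library at a low rank, from the 10.7th to the 39.7th percentile with 7 to 20 fragments at the summit. A stronger site 4.88 kb upstream of COL3A1 (chr2:189833889-189834553) was absent in D2 soft replicate 1 and at the 72.8th to 89.7th percentile in the other 7 lists. In COL5A3 a site in intron 1 came close enough to count as promoter in D2 soft replicate 2. In COL24A1 the nearest summit was 5.12 to 5.17 kb downstream of the start in D2 stiff replicate 1 and both D4 stiff lists. It was at -50.7 kb in D2 soft replicate 2, D2 stiff replicate 2 and D4 soft replicate 1. In D4 soft replicate 2 it was at -22.6 kb, and in D2 soft replicate 1 at -239.5 kb. With a promoter window of 2.5 kb, COL24A1 was the 1 member without a promoter peak in any library.

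Sites seen in both libraries of one group and neither of another were counted without a p-value, because 2 libraries against 2 cannot reach a permutation p below 0.333. On day 2, 7 of the 90 sites were found in D2 stiff only, beside 7.45% of all consensus sites, and 1 in D2 soft only, beside 0.391%. On day 4, 3 were found in D4 stiff only, beside 6.72%, and 3 in D4 soft only, beside 1.31%. Between days on the soft matrix, 6 were found on day 4 only, beside 5.79%, and 0 on day 2 only, beside 0.403%. On the stiff matrix, 1 was found on day 4 only, beside 5.35%, and 4 on day 2 only, beside 1.41%. No site was present in the 4 stiff libraries and absent from the 4 soft ones, beside 0.85% of all consensus sites. With counts of this size a change of a few sites moves each share across its background.

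The best-ranked D2 stiff-only sites were the COL1A2 promoter described above, a site at exon 2 of COL3A1 and a site upstream of COL5A2. The COL3A1 site (chr2:189849333-189849706) was at the 40th and 64.9th percentile in D2 stiff and the 81.9th in D4 stiff replicate 2, with no peak in the other 5 lists. The COL5A2 site, 56.5 kb upstream of the canonical start (chr2:190100863-190101206), was at the 21st and 61.5th percentile in D2 stiff and absent elsewhere. The other 4 were the COL27A1 promoter, a low-ranked site 0.898 kb into COL5A1 (0.445th to 7.46th percentile in 5 libraries), an intron 1 site of COL5A1 and a site downstream of COL11A1. The last pair and the COL27A1 promoter showed one further pattern, with peaks in D2 stiff and D4 soft and none in D2 soft and D4 stiff. They are the 3 D4 soft-only sites, and they count among the 6 found on the soft matrix on day 4 only and the 4 found on the stiff matrix on day 2 only. The COL11A1 site (chr1:103298785-103299061, in an intron of a non-coding gene) was at the 63.1st and 12.1st percentile in D2 stiff and the 59.3rd and 22.9th in D4 soft. The COL5A1 site (chr9:137558538-137558962) was at the 1.79th and 16.1st percentile in D2 stiff and the 37.2nd and 16th in D4 soft.

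The D2 soft-only site lay in intron 1 of COL5A2 (chr2:189980158-189981026) and was at the 47.2nd and 0.639th percentile in D2 soft, 0.813th in D4 soft replicate 1 and 0.732nd in D4 stiff replicate 2, with 4 to 7 fragments at the summit. The 3 D4 stiff-only sites were also low in their lists. The COL5A2 site 38.0 kb upstream of the canonical start (chr2:190082159-190082755) was at the 26.0th and 26.7th percentile in D4 stiff, and also present in D2 soft replicate 2 (32.6) and D2 stiff replicate 2 (41.2). The intron 1 site of COL24A1 (chr1:86616572-86617482) was at the 17.5th and 5.53rd percentile in D4 stiff and the 32.8th in D2 stiff replicate 1. The site in SGCA, in the window of COL1A1 (chr17:48250856-48251246), was at the 0.541st and 7.58th percentile in D4 stiff and the 1.55th in D2 stiff replicate 1. The 1 site found on the stiff matrix on day 4 only lay in intron 1 of COL5A2, 36.4 kb from the start (chr2:190007805-190008154), at the 24.2nd and 11.8th percentile in D4 stiff and the 52.5th in D4 soft replicate 2.

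The best-ranked distal sites stood high in most lists. In intron 2 of COL27A1 (chr9:116928834-116929477, 11.3 kb from the start), the site was at the 92.7th and 93.2nd percentile in D2 soft, the 99.5th and 97.5th for D2 stiff, the 91.5th and 97.2nd for D4 soft, and the 96.8th and 97.4th for D4 stiff. Both D2 stiff values lay above both D2 soft values, the D4 groups overlapped, and the limma difference on day 2 was 0.71 ± 0.49 (SE) normal scores with adjusted p = 0.752, or 0.37 without D2 stiff replicate 1. The site 39.0 kb upstream of COL5A1 (chr9:137494265-137495067) was at 88.0 and 91.7 in D2 soft, 95.6 and 92.7 for D2 stiff, 94.3 and 99.0 for D4 soft, and 91.7 and 93.3 for D4 stiff, with stiff above soft on day 2 and soft above stiff on day 4, by differences of 0.14 ± 0.48 and -0.66 ± 0.48 normal scores (adjusted p = 0.965 and 0.946). With 1 library left out these ran from -0.01 to 0.29, negative without D2 stiff replicate 1, and from -1.11 to -0.21. A site in an intron of AKNA, in the window of COL27A1 (chr9:117111130-117111794), was at the 53.9th percentile in D2 soft replicate 1 and between the 92.1st and the 98.2nd in the other 7 lists. In COL1A1 the site 23.1 kb downstream of the start, which holds both TGACTCA and GGAATG, was at 94.6 and 72.3 in D2 soft, 89.2 and 82.1 for D2 stiff, 88.0 and 89.4 for D4 soft, and 79.6 and 83.0 for D4 stiff. Its soft and stiff values overlapped on day 2, and on day 4 both soft values were the higher ones.

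Ranks at the 28 collagen sites seen in all libraries were compared by limma on normal scores, fitted over all 24246 such sites. The adjusted p was under 0.05 at 0 of 28 sites in each comparison. Over all sites it was under 0.05 at 0.00412% on day 2, 0.00825% on day 4, 0.00825% over both days, 0% for the interaction of stiffness and day and 0% for day 4 against day 2. The unadjusted p was under 0.05 at 2 of 28 sites on day 2 (7.65% of all sites), 3 on day 4 (5.35%), 2 over both days (7.72%), 0 for the interaction (5.27%) and 1 between days (6.91%). The median difference of the 28 sites, stiff minus soft, was -0.07 on day 2, -0.26 on day 4 and -0.16 over both days, beside -0.02 over all sites in each, while the median standard error was 0.50 on a single day. Every stiff percentile lay above every soft one at 1 of the 28 sites, beside 3.62% of all such sites, and the opposite held at 0 of 28, beside 0.874%.

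**Figure D4:**
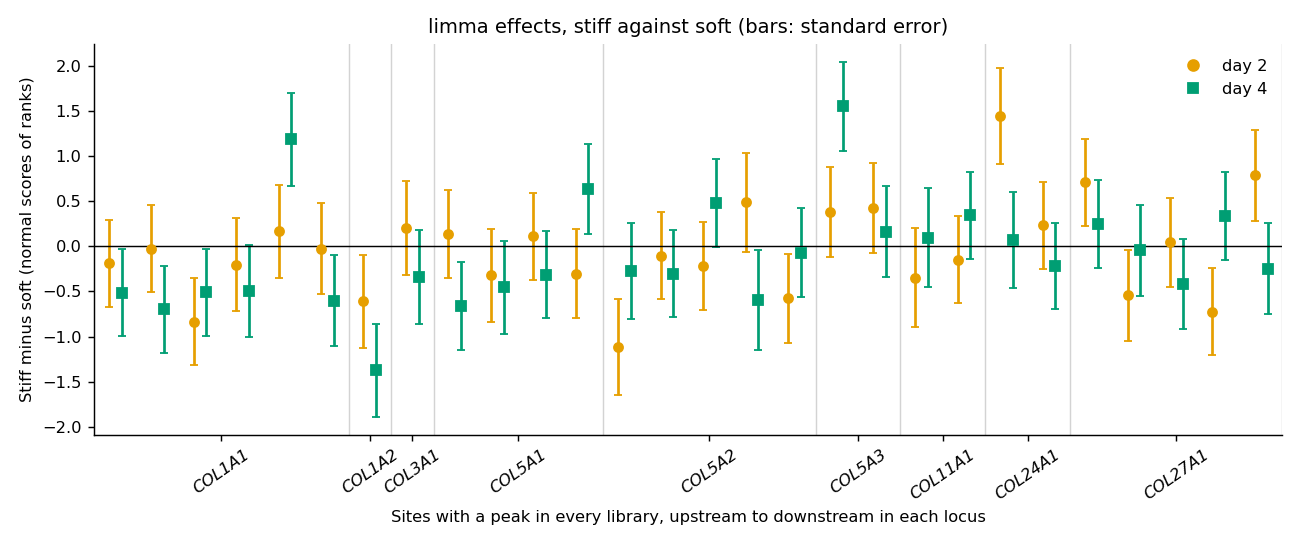
limma differences, stiff minus soft in normal scores of ranks (vertical axis, bars are standard errors), at 28 sites seen in all libraries, ordered by locus, on day 2 (circles) and day 4 (squares). The 4 points farthest from 0 are COL5A3 on day 4 (1.55), COL24A1 on day 2 (1.44), COL1A2 on day 4 (-1.37) and COL1A1 on day 4 (1.18), and no site passed the adjusted threshold.

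Of the 28 sites, 1 had every stiff percentile above every soft one, beside 3.62% of all sites seen in every library. It lay 17.3 kb upstream of COL5A3 (chr19:10138016-10138790), in intergenic sequence. It was at the 40.5th and 54.5th percentile in D2 soft, the 65.4th and 72.2nd for D2 stiff, the 23.7th and 49.4th for D4 soft, and the 74.3rd and 87.8th for D4 stiff. All 4 stiff libraries were above all 4 soft libraries. In fold enrichment these were 5.65 and 7.98, 8.77 and 10.2, 5.14 and 6.74, and 10.1 and 12.5 in the same order, from 6 to 25 fragments at the summit. The limma difference was 1.55 ± 0.50 (SE) normal scores on day 4 (adjusted p = 0.921) and 0.96 ± 0.35 over both days (adjusted p = 0.543).

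The site 19.1 kb upstream of COL1A2 (chr7:94003617-94005400, in an intron of a non-coding gene) moved the other way on day 4. It was at the 84.2nd and 50.7th percentile in D2 soft, the 56.2nd and 60.1st for D2 stiff, the 85.9th and 89.2nd for D4 soft, and the 59.0th and 56.2nd for D4 stiff. The soft values other than D2 soft replicate 2 stood above all stiff ones, and D2 soft replicate 2 was the lowest of the 8. The limma difference was -1.37 ± 0.51 (SE) normal scores on day 4 (adjusted p = 0.921) and -0.99 ± 0.36 over both days (adjusted p = 0.552). Without D2 soft replicate 1 the latter was -0.59.

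The site 40.1 kb downstream of the COL1A1 start (chr17:48238267-48239343, intergenic) was at the 78.9th and 87.5th percentile in D2 soft, the 79.4th and 96.6th for D2 stiff, the 89.1st and 70.5th for D4 soft, and the 98.8th and 94.7th for D4 stiff. Both D4 stiff values lay above both D4 soft values, and the D2 groups overlapped. The limma difference on day 4 was 1.18 ± 0.51 (SE) normal scores (adjusted p = 0.921), or 0.79 without D4 soft replicate 2. Within the same locus, the COL1A1 promoter site had a day 4 difference of the opposite sign, -0.51 ± 0.48 (adjusted p = 0.954), which was -0.27 without D4 soft replicate 2 and -0.28 without D4 stiff replicate 2.

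In intron 37 of COL24A1 (chr1:86315842-86316478), the site was at the 26.2nd and 86.8th percentile in D2 soft, the 93.0th and 97.0th for D2 stiff, the 91.5th and 86.7th for D4 soft, and the 84.6th and 95.7th for D4 stiff. D2 soft replicate 1 was far below the other 7 libraries, which ranged from 84.6 to 97.0. The day 2 difference was 1.44 ± 0.53 (SE) normal scores by limma (adjusted p = 0.535). Without D2 soft replicate 2 it was 2.243, while without D2 soft replicate 1 it was 0.59, so that its size rests on that shallow library. The intergenic site 74.3 kb upstream of COL5A2 (chr2:190117888-190119578) was at 65.0 and 34.8 in D2 soft, 20.1 and 31.6 for D2 stiff, 39.4 and 59.6 for D4 soft, and 55.2 and 36.8 for D4 stiff. Its D2 soft values lay above the D2 stiff ones, with -1.12 ± 0.53 normal scores by limma (adjusted p = 0.635), and its D4 groups overlapped. This difference too rests on the shallow library, since it was -0.41 without D2 soft replicate 1 and -1.83 without D2 soft replicate 2.

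**Figure D5:**
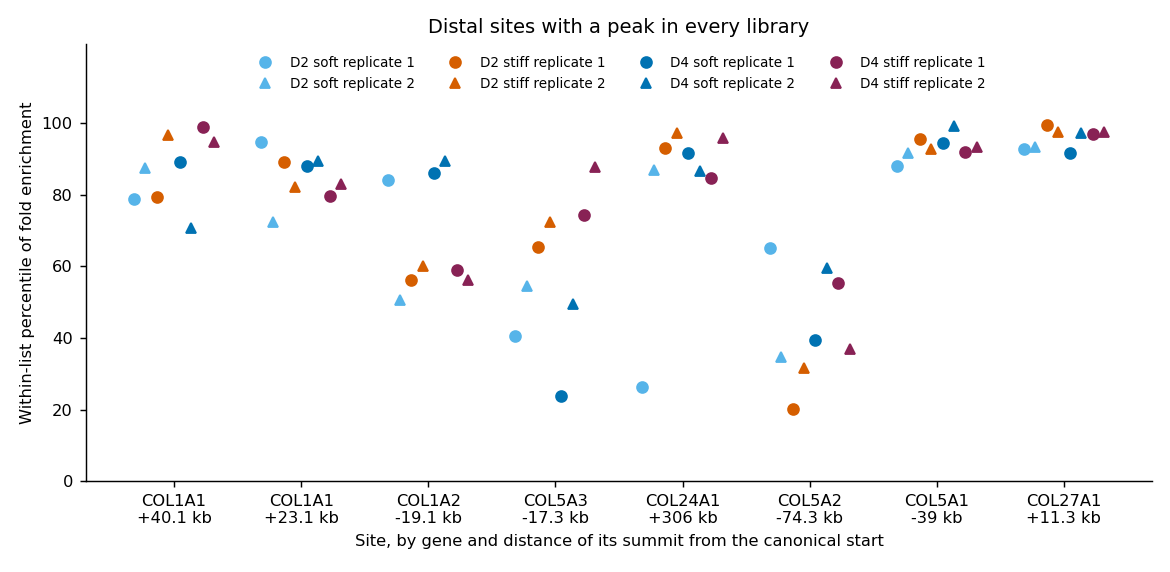
Within-list percentile of fold enrichment (vertical axis, 0 to 100) at 8 distal sites seen in all libraries (horizontal axis, gene and distance of the summit from the start), with one symbol for each library. The COL5A3 site is the one at which the 4 stiff libraries, from 65.4 to 87.8, lie above the 4 soft ones, from 23.7 to 54.5.

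Between days, the smallest p fell at a site in intron 1 of COL5A1 (chr9:137536587-137537222, 3.16 kb from the start), which was named after its values were seen. It was at the 0.0319th and 1.46th percentile in D2 soft, the 1.02nd and 3.74th for D2 stiff, the 16.8th and 23.3rd for D4 soft, and the 12.2nd and 21.8th for D4 stiff. All 4 D4 libraries were above all 4 D2 libraries, although the site did not pass the 23.3rd percentile in any list. The difference, day 4 minus day 2, was 1.09 ± 0.34 (SE) normal scores by limma (adjusted p = 0.602).

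Genes whose promoter sites had the most similar normal scores over the 8 libraries were named as a description. Among 8583 genes with a promoter site in every library, the nearest to COL1A1 by Euclidean distance were the histone genes H2AC25 and H2BC26, which share 1 site (0.580), and the nearest to COL5A2 were CDKL1 (0.473) and SPOPL (0.480). The median distances over all these genes were 2.79 and 2.48.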

How the data were processed

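Peaks of 8 ATAC-seq libraries of LX-2 cells were analysed. Per the submitters' processing notes and the study's methods, the authors trimmed the reads with Trim Galore, mapped them to hg19 with Bowtie2 (2.4.1) and called peaks in each library separately with MACS2 at q up to 0.05, and bedtools (2.24.0) and Picard are also named. Other settings are not given in the sources used here. The deposited lists hold a fold enrichment (a ratio of summit pileup to local background), −log10 p and −log10 q, the offset of each summit within its peak, and a score that the authors' caller set to 10 times −log10 q without decimals. The score was not used.

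Fold enrichment was ranked within lists, over the 24246 sites seen in all libraries, and fitted as normal scores with limma 3.58.1 (R 4.3.3) as 4 group means. Locus shares were fitted with limma's trend option. Adjusted p-values are Benjamini-Hochberg over all sites or genes, and both fits were tested on simulated data. Depth was estimated by finding the whole-number pileup and background that give both deposited values, within 0.001 of −log10 p. Canonical starts came from GENCODE release 44 on GRCh37. All 9 members were named, with their promoter and best distal sites, the 3 sites of smallest p in each stiffness comparison and the sites of one group only. The members, lists and tests were chosen with earlier results of these data known. The number carried inside the peak names differs from the labels' replicate number in some lists, and groups and replicates follow the labels. Alternative windows, thresholds, list lengths, ranks, a replicate block and leaving out each library were tried. The authors' read counts were not used here. The proximal sequences of some of the genes are not reported here.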

Additional observations from a re-analysis of the deposited data

Results flagged for a closer look

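Among the 4 libraries of each matrix, 38 sets of values were screened for 1 library far from the other 3 (Dixon's ratio), and 6 were flagged. Chance flags about 1 in 20 sets of continuous values. That rate does not hold for small counts with ties or for sites chosen by their p, so 6 of 38 cannot be set against it. Of the flagged sets, 4 are small whole-number counts in which the other 3 libraries were equal. D4 soft replicate 1 had 6 peaks in the COL5A3 locus, beside 4 in each other soft library, and D4 stiff replicate 2 had 6, beside 5. D2 stiff replicate 2 had 6 peaks in the COL1A1 locus, beside 8, and D4 stiff replicate 1 had 3 in the COL3A1 locus, beside 6. The site in intron 37 of COL24A1 was at the 26.2nd percentile in D2 soft replicate 1, beside 86.7 to 91.5 in the other soft libraries. The site 19.1 kb upstream of COL1A2 was at the 50.7th percentile in D2 soft replicate 2, beside 84.2 to 89.2 in the other soft libraries.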

How the results depend on the processing

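Under the labels' replicate numbers, the differences between replicates 1 and 2 correlated between groups by -0.0414 to 0.0837. The numbers in the peak names differ from the labels in some lists, so these values cannot decide whether libraries were paired. With the replicate number as a block, limma called 0 collagen sites and 0 collagen loci in every comparison, as without it. With windows of 10 kb, 16 collagen sites had a peak in every library and 2 were stiff day 2-only. With the gene bodies alone there were 50 consensus sites, 14 in every library, 4 D2 stiff-only, 1 D4 soft-only, 3 soft day 4-only and 1 stiff day 2-only. At q up to 0.01, 0 sites were D2 soft-only. With lists cut to equal length there were 50 consensus sites, 15 in every library, 3 D2 stiff-only, 0 soft day 4-only, 2 soft day 2-only and 0 stiff day 4-only, and 1 gene had a promoter peak in every library and 5 in none. When a peak in 1 replicate sufficed for a group, 19 sites were D2 stiff-only, 4 D2 soft-only, 9 D4 stiff-only, 7 D4 soft-only, 14 soft day 4-only, 3 soft day 2-only and 4 stiff day 4-only. These counts have no share of all consensus sites beside them, so they cannot be read as particular to the collagen loci. With a promoter window of 500 bp 1 gene had a promoter peak in every library, and with 2.5 kb, or with any annotated start, 1 had none.

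Leaving out each library in turn gave 28 to 43 sites in every library (43 without D2 soft replicate 1), 7 to 30 D2 stiff-only and 6 to 25 soft day 4-only (30 and 25 without D2 soft replicate 2), 1 to 4 D2 soft-only, 3 to 11 D4 stiff-only, 3 to 7 D4 soft-only, 0 to 5 soft day 2-only, 1 to 8 stiff day 4-only, 4 to 8 stiff day 2-only, 0 to 2 in all stiff and no soft libraries, and 2 to 3 genes with a promoter peak in every library. The counts by group have no share of all consensus sites beside them, so they cannot be read as particular to these loci. On day 2, limma called 0 collagen sites and 0 loci with any D4 library left out. Without D2 soft replicate 2 the shallow library stands alone in its group, and those differences are given above. The COL1A1 promoter difference on day 4 was 0.0151 with ranks of −log10 p. The COL5A2 promoter difference on day 2 was 0.0920 with ranks within the whole list and -0.53 to 0.10 with a library left out, and over both days it was -0.00713 with ranks of −log10 p and -0.0258 to 0.29 with a library left out. The cause of these changes was not tested. The estimated depth was lowest in D2 soft replicate 1, and its part in absent peaks was not tested.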
